A study of Mus musculus with 10 samples.

Results

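The 9 genes of nitric oxide and cyclic GMP signalling followed here in mouse retina were the nitric oxide synthases Nos1 and Nos2, the synthase adaptor Nos1ap, the soluble guanylyl cyclase subunits Gucy1a1, Gucy1a2 and Gucy1b1, the cyclic GMP dependent kinases Prkg1 and Prkg2, and the phosphodiesterase Pde5a. They were chosen by name, and all 9 of the 9 symbols had a row among the 25905 genes of the deposited table. Total RNA depleted of ribosomal RNA was sequenced from 10 retinas, the right and the left of 5 mice numbered 61, 64, 65, 66 and 68. All mice were wild type C57BL/6J at postnatal day 34, and 1 eye of each had looked through a lens of -20 dioptres for 10 days from postnatal day 24 while the other eye had none. The labels give the side of a retina and not its lens, so right retinas (n = 5) are set against left retinas (n = 5) of the same animals, and neither side stands for the lens-treated eye.

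Nitric oxide is a diffusible messenger that synthases make from arginine. It binds the haem of soluble guanylyl cyclase, a heterodimer of an alpha and a beta subunit, and the cyclic GMP so formed activates kinases, gates channels and is broken down by phosphodiesterases. In the retina neuronal nitric oxide synthase is best known from amacrine cells, and nitric oxide has been tied to light adaptation and to the coupling of neurons through gap junctions. In chicks, drugs that act on nitric oxide synthesis alter experimentally induced myopia.

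The cyclase subunit genes Gucy1a1 and Gucy1b1 led the set in level while Gucy1a2 stood far below them. The sequences before their RefSeq starts are shown so that these 3 subunit genes can be set side by side. RefSeq promoter windows on GRCm38.p6 were at hand for 7 of the 9 genes. The 250 bases before the RefSeq start are printed for Gucy1a1 on chromosome 3 (bases 82145651 to 82145900, minus strand, the first of 2 windows of this gene), Gucy1a2 on chromosome 9 (bases 3532099 to 3532348, plus strand) and Gucy1b1 on chromosome 3 (bases 82074712 to 82074961, minus strand). Capitals mark the GC box (GGGCGG or its reverse complement CCGCCC) and the CCAAT box (CCAAT or its reverse complement ATTGG), with no overlap between the matches in these windows.
Gucy1a1: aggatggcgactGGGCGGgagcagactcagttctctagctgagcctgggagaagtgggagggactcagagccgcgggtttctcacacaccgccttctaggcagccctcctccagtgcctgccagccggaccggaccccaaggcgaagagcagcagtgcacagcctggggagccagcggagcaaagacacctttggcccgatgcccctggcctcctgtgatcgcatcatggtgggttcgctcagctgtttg
Gucy1a2: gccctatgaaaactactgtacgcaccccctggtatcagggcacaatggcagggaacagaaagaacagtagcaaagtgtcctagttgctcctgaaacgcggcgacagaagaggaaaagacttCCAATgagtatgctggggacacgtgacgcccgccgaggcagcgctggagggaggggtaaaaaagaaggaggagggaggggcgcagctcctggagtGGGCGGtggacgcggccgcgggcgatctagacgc
Gucy1b1: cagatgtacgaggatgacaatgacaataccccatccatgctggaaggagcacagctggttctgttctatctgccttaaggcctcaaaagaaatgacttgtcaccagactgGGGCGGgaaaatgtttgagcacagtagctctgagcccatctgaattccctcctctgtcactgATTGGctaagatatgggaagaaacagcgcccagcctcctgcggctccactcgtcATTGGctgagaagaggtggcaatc
Each of the 3 windows held 1 GC box, a motif found in 32.7% of all 32851 windows of this length. The CCAAT box occurred 2 times before Gucy1b1, 1 time before Gucy1a2 and 0 times before Gucy1a1, against a share of 33.8% of windows with at least 1 match. CpG dinucleotides numbered 12, 17 and 5 before Gucy1a1, Gucy1a2 and Gucy1b1, where the median window had 6. The windows do not sit alike against the gene bounds given below. That of Gucy1a1 lies partly inside the gene, whose bounds reach base 82145789 at its minus-strand start. The window of Gucy1a2 ends at base 3532348, before the listed gene start at 3532778. The motif and CpG counts are thus not from like positions against those bounds. These matches describe letters and do not show binding.

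The values are CPM, read counts scaled to a common library size, and 1 CPM rested on 89.2 to 113.3 counts by the step inferred from the table, so that the listed genes of a library held 29578228 to 37080614 counts. The listed genes summed to 321700 to 346700 CPM in a library, so a value is not a share of the listed genes alone. Rod and cone markers, 10 genes in all, summed to 10354 to 10831 CPM in right retinas and 9999 to 11773 CPM in left retinas, as the retinal label implies. A list of 10 skeletal muscle genes summed to 30.9 to 36.3 CPM in right retinas and to 31.0 to 33.1 CPM in 4 left retinas, but to 279.2 CPM in the left retina of mouse 68. A list of 12 lens genes summed to 863.3 CPM for the right eye of mouse 65 and to 10.6 to 139.5 CPM in the other 9 libraries. In means over the 5 mice, the lists of lens, fibroblasts and pigment epithelium leaned to the right. A mean difference (right minus left) above 0 was found for 10 of 10 tested lens genes, in means that include the right retina of mouse 65. A mean above 0 was also found for 7 of 7 tested genes of sclera and connective tissue fibroblasts and 5 of 5 tested pigment epithelium genes. The median difference over all tested genes was 0.0017 on the log2(CPM + 1) scale. The skeletal muscle list went the other way, with 6 of 6 tested genes below 0, in means that include the left retina of mouse 68. The 8 fibroblast genes summed to 20.01 to 25.3 CPM in right retinas and 14.9 to 19.5 CPM in left retinas, with no overlap, and the 8 pigment epithelium genes to 12.5 to 19.0 CPM and 10.5 to 20.8 CPM on those sides. In mouse 64 the right sum was the lower for lens (31.9 against 61.4 CPM) and for pigment epithelium (12.5 against 20.8 CPM). The part of these tissues in the differences given below was not tested. In whole retinas, fewer cells of a type and less RNA per cell cannot be told apart.

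Divided by the length of merged exons, the 2 major cyclase subunits were far above the other genes. Gucy1a1 (10.1 ± 0.395 CPM per kb, SD, n = 10 libraries) and Gucy1b1 (6.60 ± 0.348 CPM per kb) exceeded 93.1% and 87.3% of tested genes per length. Prkg1 followed with 1.60 ± 0.0671 CPM per kb, near the median of 1.96 CPM per kb over the tested genes with a length. Gucy1a2 had 0.779 ± 0.0434, Pde5a 0.532 ± 0.0509, Prkg2 0.376 ± 0.0445, Nos1 0.289 ± 0.0314, Nos1ap 0.234 ± 0.0291 and Nos2 0.0157 ± 0.0113 CPM per kb. From Gucy1a1 down to Prkg2, no library of a gene reached a library of the gene ranked next above it. Prkg2 overlapped Nos1, and Nos1 overlapped Nos1ap. With the length of the longest transcript in place of merged exons, a choice added after seeing the data, the first 5 ranks kept their genes, while Nos1ap, at 0.501 CPM per kb, stood above Prkg2 (0.406) and Nos1 (0.319).

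**Figure D1:**
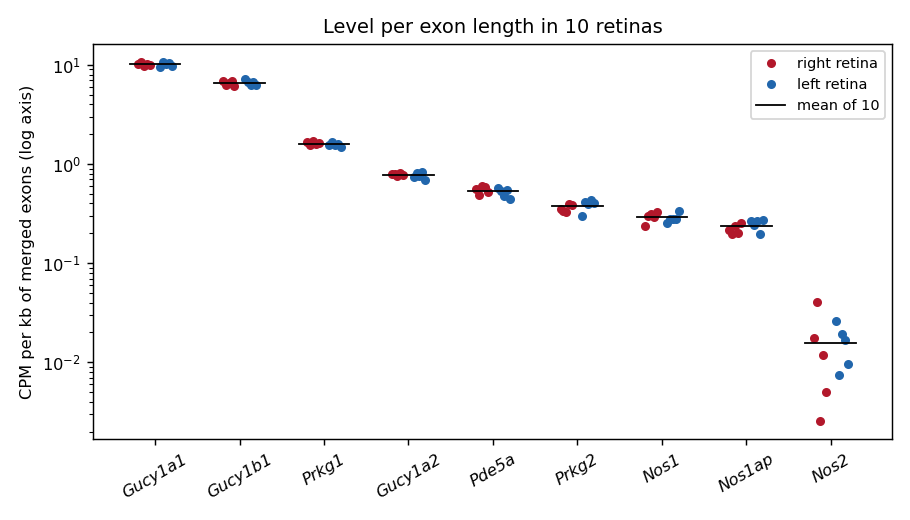
Level per exon length (CPM per kb of merged exons, log axis) of the 9 genes in 5 right and 5 left retinas, with a line at the mean of the 10 libraries. Gucy1a1 and Gucy1b1 average 10.1 and 6.60 CPM per kb, and Nos2, at 0.0157 CPM per kb, scatters most.

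Neuronal nitric oxide synthase, Nos1, was weakly expressed. Its level differed more between animals than between fellow eyes, without passing limma's F-test over mice (adjusted p = 0.390). It lies on the plus strand of chromosome 5 (bases 117781032 to 117958840 of GRCm38) with 11.2 kb of merged exons. Nos1 measured 2.63, 3.32, 3.51, 3.26 and 3.65 CPM in the right retinas of mice 61, 64, 65, 66 and 68, against 2.81, 3.10, 3.13, 3.13 and 3.73 CPM in their left retinas. Both retinas of mouse 61 were lowest on their side and both of mouse 68 highest, and the sides overlapped. Nos1 averaged 3.28 ± 0.395 CPM in right retinas and 3.18 ± 0.337 CPM in left retinas (SD, n = 5 each). On the scale of log2(CPM + 1), which understates changes of weak genes, right minus left was 0.032 (SE 0.062, 95% interval -0.11 to 0.17, limma adjusted p = 0.9996), with 3 of 5 mice higher on the right. Muscle also expresses Nos1. In mouse 68 the muscle list summed to 36.2 CPM on the right and 279.2 CPM on the left. Nos1 was at 3.65 and 3.73 CPM on those sides, and the part of muscle tissue in its level was not tested. Without mouse 68 the difference of Nos1 was 0.045, without mouse 65 it was 0.0079 and without both 0.018.

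Nos2, the inducible synthase of activated macrophages and glia, was close to the limit of detection. It lies on chromosome 11 (bases 78920787 to 78960254, plus strand). Its right retinas had 0.0780, 0.179, 0.0113, 0.0528 and 0.0220 CPM in mice 61, 64, 65, 66 and 68, and its left retinas 0.116, 0.0326, 0.0860, 0.0741 and 0.0426 CPM. These stand for 1 to 18.9 implied counts, so that the highest library, the right retina of mouse 64, rests on about 18.9 counts. In that mouse the right value was the higher, in the other 4 the left, and a mean of 0.0694 CPM kept it under the filter for testing. An exact two-sided sign-flip test over the 5 within-mouse differences gave p = 1 for a mean of -0.0040 on the log2(CPM + 1) scale. The mean was -0.053 without mouse 64 and 0.0022 to 0.021 without any other single mouse, so it has no settled sign. With 5 mice that test cannot reach 0.05, since the most extreme result still covers 2 of 32 sign patterns. The 9 microglia and macrophage markers summed to 6.50 to 7.82 CPM in right retinas and 5.62 to 8.20 CPM in left retinas. Their part in the level of Nos2 was not tested.

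Nos1ap encodes the adaptor that binds neuronal nitric oxide synthase at its PDZ domain. On the minus strand of chromosome 1 (bases 170302668 to 170589861), it measured 1.58, 1.43, 1.71, 1.47 and 1.83 CPM in the right retinas of mice 61, 64, 65, 66 and 68, against 1.93, 1.76, 1.91, 1.42 and 1.96 CPM in their left retinas. The right value was the smaller in 4 of 5 mice, all but mouse 66, and the sides overlapped. The difference was -0.10 (SE 0.067, 95% interval -0.25 to 0.047) and did not pass (limma adjusted p = 0.9996). It depended on the pseudocount in size, at -0.15 with 0.1 CPM and -0.041 with 5 CPM. Gm7694, a gene on the same strand at 1.10 CPM, shares 171 exon bases with Nos1ap, and how reads there were assigned is not known. Per exon length Nos1 over Nos1ap was 1.33 ± 0.166 in right retinas and 1.16 ± 0.182 in left retinas (SD, n = 5 each), and it fell below 1 in 1 library, the left retina of mouse 61 (0.945). With the longest transcript as length the ratio was 0.688 ± 0.0855 in right retinas and 0.601 ± 0.0939 in left retinas, below 1 in all 10 libraries, so which of the pair ranks higher is set by the choice of length.

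Of the soluble cyclase genes, Gucy1a1, for the alpha-1 subunit, was the most abundant gene of the set and among the steadiest. It lies on the minus strand of chromosome 3 (bases 82092427 to 82145789), with Gucy1b1 17.7 kb away on the same strand (bases 82032006 to 82074689). Gucy1a1 measured 71.1, 74.7, 67.3, 70.5 and 69.6 CPM in the right retinas of mice 61, 64, 65, 66 and 68, and 66.6, 73.8, 71.6, 73.3 and 68.5 CPM in the left. The highest library was 1.12 times the lowest, and the coefficient of variation over the 10 was 3.89%. Right minus left was -0.0027 (SE 0.036, 95% interval -0.083 to 0.077, limma adjusted p = 0.9996), higher on the right in 3 mice. That interval is for the mean over mice and reaches 0.083 log2 units below 0 and 0.077 above it. Single mice ran from -0.090 in mouse 65 to 0.093 in mouse 61.

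Gucy1b1, for the beta-1 subunit that carries the haem, varied more between animals than eyes, without passing limma's F-test over mice (adjusted p = 0.403). It had 27.1, 24.9, 25.6, 27.3 and 24.2 CPM in the right retinas of mice 61, 64, 65, 66 and 68, against 28.1, 26.5, 24.7, 26.6 and 24.4 CPM in the left. Both retinas of mouse 68 were lowest on their side, and the sides overlapped. The difference was -0.012 (SE 0.038, 95% interval -0.097 to 0.073, limma adjusted p = 0.9996). Gucy1a2, for the alternative alpha-2 subunit, which binds the synaptic scaffold PSD-95, lies on chromosome 9 (bases 3532778 to 3894736, plus strand). It ranged from 5.09 to 5.44 CPM in right retinas and from 4.54 to 5.54 CPM in left retinas, with its lowest value in the left retina of mouse 68. Right minus left was 0.037 for Gucy1a2 (SE 0.058, 95% interval -0.092 to 0.17, limma adjusted p = 0.9996), or 0.0070 without mouse 68.

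The alpha-1 subunit gene was listed at a higher level per length than its beta partner in all 10 libraries. Gucy1a1 over Gucy1b1 was 1.55 ± 0.104 in right retinas and 1.54 ± 0.117 in left retinas (SD, n = 5 each), with the lowest ratio, 1.33, in the left retina of mouse 61 and the highest, 1.69, in the right retina of mouse 64. Gucy1a1 over Gucy1a2 was 12.8 ± 0.468 in right retinas and 13.3 ± 0.713 in left retinas. These ratios rest on the merged exon lengths of 6.97, 3.93 and 6.65 kb for Gucy1a1, Gucy1b1 and Gucy1a2. With the longest transcript Gucy1a1 over Gucy1a2 was 9.23 ± 0.337 in right retinas and 9.55 ± 0.513 in left retinas. Gucy1a1 over Gucy1b1 was then 1.88 ± 0.127 and 1.87 ± 0.142 on those sides.

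**Figure D2:**
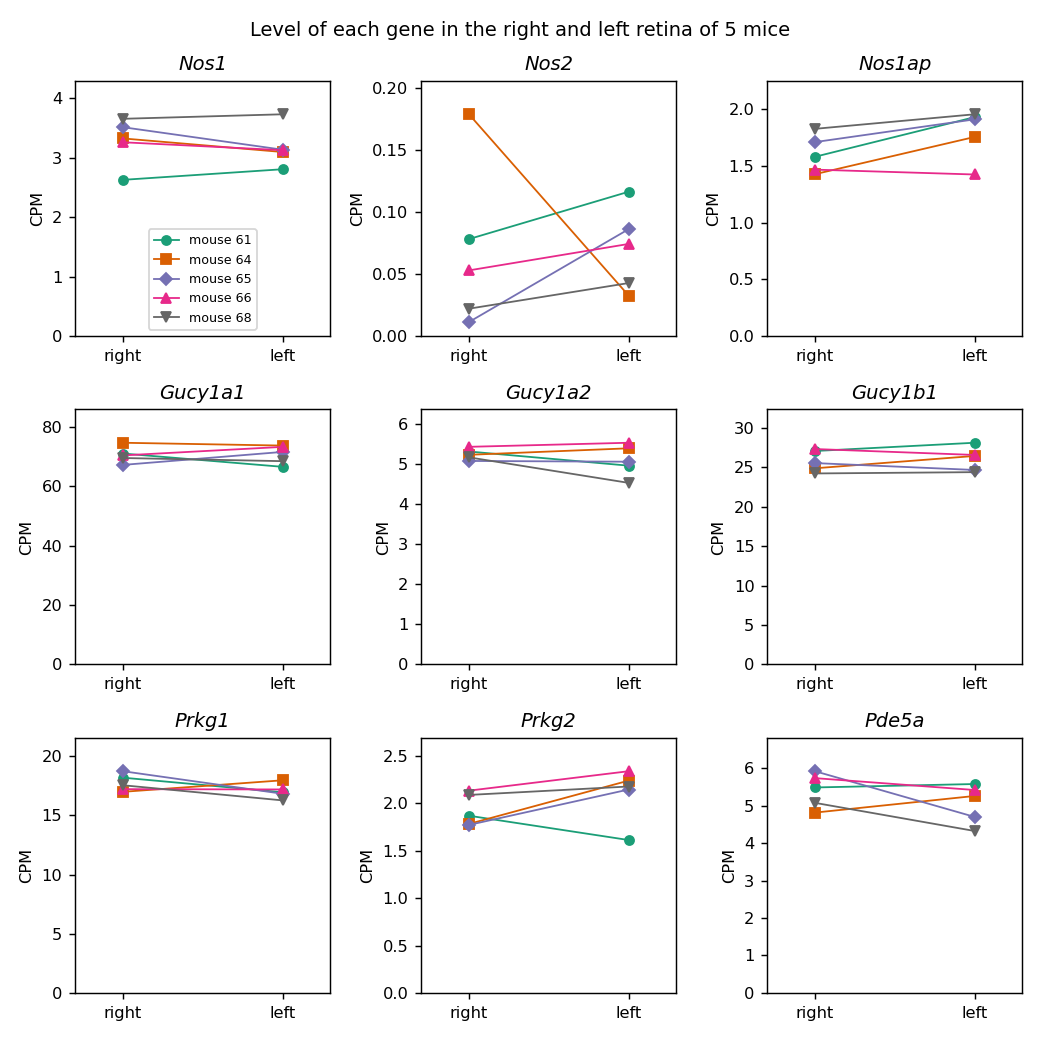
CPM of the 9 genes in the right and the left retina of each mouse, on axes that start at 0, with a line joining the retinas of an animal. The lines of Gucy1a1, Gucy1b1 and Prkg1 run nearly level, Nos1 keeps mouse 61 lowest and mouse 68 highest on both sides, and Nos2 crosses at 0.0113 to 0.179 CPM.

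Downstream of cyclic GMP, Prkg1 was the main kinase transcript. Prkg1 encodes the cytosolic kinase known from smooth muscle and neurons and lies on chromosome 19 (bases 30564489 to 31765033, minus strand), a span of 1201 kb with 10.9 kb of merged exons. It measured 18.2, 17.0, 18.7, 17.2 and 17.6 CPM in the right retinas of mice 61, 64, 65, 66 and 68, against 17.0, 18.0, 16.8, 17.2 and 16.3 CPM in the left. Higher values stood on the right in 4 of 5 mice, all but mouse 64, though by under 0.15 log2 units in each. The difference was 0.054 (SE 0.045, 95% interval -0.047 to 0.16, limma adjusted p = 0.9996), and 0.0072 without mice 65 and 68.

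Prkg2, for the membrane-anchored kinase, lies on chromosome 5 (bases 98929773 to 99037351, minus strand). Its right retinas had 1.87, 1.78, 1.77, 2.14 and 2.09 CPM in mice 61, 64, 65, 66 and 68, and its left retinas 1.61, 2.24, 2.15, 2.34 and 2.18 CPM. The left retina of mouse 61 stood apart from the other 4 left retinas, and mouse 61 was the only animal with the higher value on the right. Right minus left was -0.080 (SE 0.073, 95% interval -0.24 to 0.083, limma adjusted p = 0.9996), and -0.13, -0.045 and -0.054 without mice 61, 64 and 65, none of which passed. Per exon length Prkg1 over Prkg2 was 4.58 ± 0.504 in right retinas and 4.07 ± 0.642 in left retinas. The longest transcript as length gave 6.59 ± 0.726 and 5.87 ± 0.925 on those sides.

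Pde5a encodes the phosphodiesterase that breaks down cyclic GMP and is the target of sildenafil. It lies on the plus strand of chromosome 3 (bases 122728947 to 122859374). In the right retinas of mice 61, 64, 65, 66 and 68 it measured 5.49, 4.82, 5.92, 5.74 and 5.08 CPM, against 5.58, 5.26, 4.70, 5.42 and 4.33 CPM in the left. The highest value was in the right retina of mouse 65 and the lowest in the left retina of mouse 68, the libraries with the most lens and the most muscle transcripts. Right minus left was 0.083 (SE 0.069, 95% interval -0.071 to 0.24, limma adjusted p = 0.9996), higher on the right in 3 mice. Without mice 65 and 68 it was -0.019, so its direction rested on those animals, and the part of lens or muscle tissue in it was not tested. The 10 pericyte and smooth muscle markers, of cells known to express Pde5a and Prkg1, summed to 41.3 to 45.8 CPM in right retinas and 42.7 to 47.8 CPM in left retinas, with 45.5 CPM for the right eye of mouse 65 and 44.5 CPM for the left eye of mouse 68.

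Right against left, 0 of the 8 tested genes passed limma's test, as did 0 of all 14210 tested genes (0%). At an unadjusted p under 0.05 limma had 0 of the 8, where the share over all tested genes was 2.34%. None of the 8 was higher or lower on the right in 5 of 5 mice, against 2.78% and 2.01% of tested genes, and none had sides without overlap, against 0.289%. The median difference of the 8 was 0.014 and that of all tested genes 0.0017 on the log2(CPM + 1) scale. The widest of the 8 intervals, that of Nos1ap, reached 0.25 log2 units. These intervals bear on side alone. A lens effect that fell on the right eye in some animals and on the left in others would not appear in a mean over sides.

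**Figure D3:**
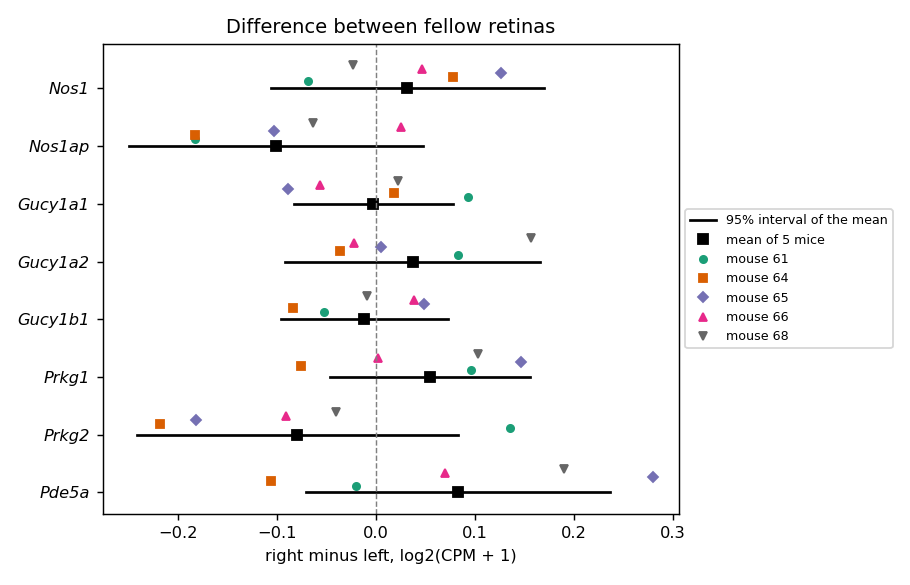
Right minus left on the log2(CPM + 1) scale for the 8 tested genes, with the mean of 5 mice (square), its 95% interval (bar) and each mouse (coloured symbols). Every interval spans 0, and the largest single difference, 0.28, is that of Pde5a in mouse 65.

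Because the lensed side is not given, the size of the differences between fellow eyes was also described without their sign. The mean absolute difference over 5 mice was 0.061 for Gucy1a2, 0.069 for Nos1, 0.047 for Gucy1b1, 0.056 for Gucy1a1, 0.085 for Prkg1, 0.11 for Nos1ap, 0.13 for Prkg2 and 0.13 for Pde5a. Each was set beside the median of tested genes in 1 of 5 bins of equal size by level. In 7 of the 8 it was smaller than that median, the exception being Pde5a, at 0.133 against 0.130. For Gucy1a2 only 4.64% of the genes in its bin had a smaller mean difference between fellow eyes, and for Nos1 only 7.53%. The corresponding shares were 20.3% for Gucy1b1, 31.4% for Gucy1a1, 42.7% for Prkg1, 26.6% for Nos1ap, 42.8% for Prkg2 and 52.0% for Pde5a.

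Between animals the pattern differed from gene to gene. The mouse took 88.8% of the sum of squares of Nos1 and 85.6% of that of Gucy1b1, against a median of 56.1% over tested genes, but 19.2% of that of Prkg1. For the other 5 tested genes the share ran from 48.0% in Pde5a to 64.7% in Nos1ap. Limma's moderated F-test over mice called 0 of the 8, where it called 0.57% of tested genes, and 0 of the 8 at an unadjusted p under 0.05, where it called 13.8%. Nos1 had an F-test adjusted p of 0.390 in limma with mouse means spread over 0.34 log2 units, and Gucy1b1 0.403 with 0.18 log2 units. Without mouse 61 limma's F-test gave an adjusted p of 0.893 for Nos1 and 0.858 for Gucy1b1. The ordering of mice seen in Nos1, with mouse 61 low and mouse 68 high in both eyes, did not pass.

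Over the 10 libraries, which come from 5 animals and share the CPM scale, Pearson's r of log2(CPM + 1) between the cyclase subunits Gucy1a1 and Gucy1b1 was -0.12. For Gucy1a1 and Gucy1a2 it was 0.60, for Gucy1b1 and Pde5a 0.72, for Pde5a and Prkg1 0.72 and for Nos1 and Gucy1b1 -0.76. These are the values of 5 of 28 pairs, picked after they were seen, and they describe these libraries without a test. Among all tested protein-coding genes the profile most like that of Nos1 was Vamp2, a synaptic vesicle protein gene (r = 0.96), followed by Plekhm1 (0.93). For Nos1ap these were Sec1 (0.94) and Gucy2e (0.93), for Gucy1a1 Sez6 (0.92) and Ssx2ip (0.91), for Gucy1a2 Gab1 (0.90) and Pdzrn3 (0.88), and for Gucy1b1 Mphosph9 (0.97) and Rnf19b (0.96). Pde5a was most like Fbxl17 (0.95) and Alkbh7 (0.93), Prkg1 most like Fbxl14 (0.93) and Srpx (0.93), and Prkg2 most like Itga4 (0.88) and Wnt2b (0.86). They are the highest over all those genes and were not tested.

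The other genes of the pathway were read from 8 lists with 75 genes, of which 74 were in the table and 56 were tested. Right against left, limma called 0 of the 56 as higher and 0 as lower, with a median difference of -0.0077. At an unadjusted p under 0.05 limma had 2 of 56, or 3.57%, against 2.34% of all tested genes. Those were Dlg4 and Cbr1. Dlg4 encodes PSD-95, the scaffold that holds neuronal nitric oxide synthase at synapses. Dlg4 measured 147.3, 161.3, 171.8, 166.3 and 166.9 CPM in the right retinas of mice 61, 64, 65, 66 and 68, against 161.6, 166.2, 175.6, 176.2 and 177.0 CPM in the left. Right retinas were the lower in 5 of 5 mice, with a mean difference of -0.075 (SE 0.031, limma unadjusted p = 0.0355 and adjusted p = 0.9996), and the sides overlapped. Cbr1, a carbonyl reductase that also reduces nitrosoglutathione, had 6.65 ± 0.334 CPM in right retinas and 6.04 ± 0.307 CPM in left retinas, higher on the right in 5 of 5 mice (0.12, SE 0.053, limma unadjusted p = 0.0494 and adjusted p = 0.9996).

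Nos3, the endothelial synthase, was the third synthase gene and passed the filter narrowly. Nos3 had 1.23, 1.20, 1.10, 1.73 and 1.27 CPM in the right retinas of mice 61, 64, 65, 66 and 68, against 1.14, 1.04, 0.848, 1.06 and 1.18 CPM in the left. It was higher on the right in 5 of 5 mice, with a difference of 0.16 (SE 0.075, 95% interval -0.0052 to 0.33, limma unadjusted p = 0.0561 and adjusted p = 0.9996). Of the 56 tested pathway genes, 2 (Nos3 and Cbr1) were higher on the right in 5 of 5 mice and 1 (Dlg4) was lower. The shares over all tested genes were 2.78% higher and 2.01% lower. The 8 endothelial markers summed to 75.6 to 89.0 CPM in right retinas and 77.9 to 85.8 CPM in left retinas, and their part in the values of Nos3 was not tested. Per exon length Nos3, at 0.286 ± 0.0550 CPM per kb (SD, n = 10), overlapped Nos1 at 0.289 ± 0.0314 CPM per kb.

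Per merged exon length, transcripts of the membrane guanylyl cyclases of photoreceptors stood above those of the soluble cyclase subunits. Gucy2e, the main cyclase of rod and cone outer segments in mice, had 20.1 ± 1.09 CPM per kb over the 10 libraries, and Gucy1a1 10.1 ± 0.395, with no overlap between libraries. Gucy2f had 17.9 ± 0.838 CPM per kb. With the longest transcript as length Gucy1a1 was at 15.0 CPM per kb, and that length was not used for Gucy2e or Gucy2f. Of the list of membrane cyclase and natriuretic peptide genes 6 of 13 were tested. Their differences ran from -0.078 in Guca1a, a calcium sensor of the photoreceptor cyclases, to 0.044, with -0.040 in Gucy2e. The list of other cyclic GMP phosphodiesterase genes held 15, all of them tested, of which 12 had a mean below 0 and 3 above it. Their median difference was -0.016, against 0.0017 over all tested genes. At an unadjusted p under 0.05 limma had 0 of the 15, where the share over all tested genes was 2.34%. Pde6d, a carrier of prenylated proteins, differed by 0.14 (SE 0.067) and Pde10a, a striatal enzyme that cleaves both cyclic nucleotides, by -0.11 (SE 0.056), and neither passed. Cyclic GMP-gated channels, the readout of cyclic GMP in photoreceptors, had 4 of 6 genes tested: Cnga3 of cones differed by -0.044 and Cngb1 of rods by -0.014, and the highest difference was 0.015.

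Among targets of the kinases, Kcnma1, a calcium-activated potassium channel gene, differed by -0.036 (SE 0.030) and its beta subunit gene Kcnmb4 by -0.052 (SE 0.076). In the list of synthase partners and brakes, Calm3, 1 of the calmodulin genes, differed by -0.077 (SE 0.036), with 4 of 5 mice lower on the right. Of the genes that supply arginine and the cofactor tetrahydrobiopterin 9 of 12 were tested. Ass1, which recycles citrulline to arginine, had 1.76 ± 0.347 CPM in right retinas and 1.47 ± 0.206 CPM in left retinas (0.16, SE 0.093). Slc7a2, an arginine transporter, differed by 0.26 (SE 0.15), with 18.8 CPM for the right eye of mouse 65, the library highest in lens transcripts, and 6.77 to 9.50 CPM in the other 9 libraries. Without mouse 65 its mean difference was 0.035. Txnrd1, a thioredoxin reductase, differed by 0.044 (SE 0.050). Without mouse 65 several of these values moved by over 1.5 times: Ass1 to 0.063, Txnrd1 to 0.011, Pde10a to -0.17, Kcnmb4 to -0.11, Guca1a to -0.13, Cnga3 to -0.077 and Cngb1 to -0.040, and Pde6d was at 0.046 without mice 65 and 68. Between mice 0 of the 56 passed limma's F-test, and 5 of 56 (8.93%) had an unadjusted p under 0.05, against 13.8% of tested genes.

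**Figure D4:**
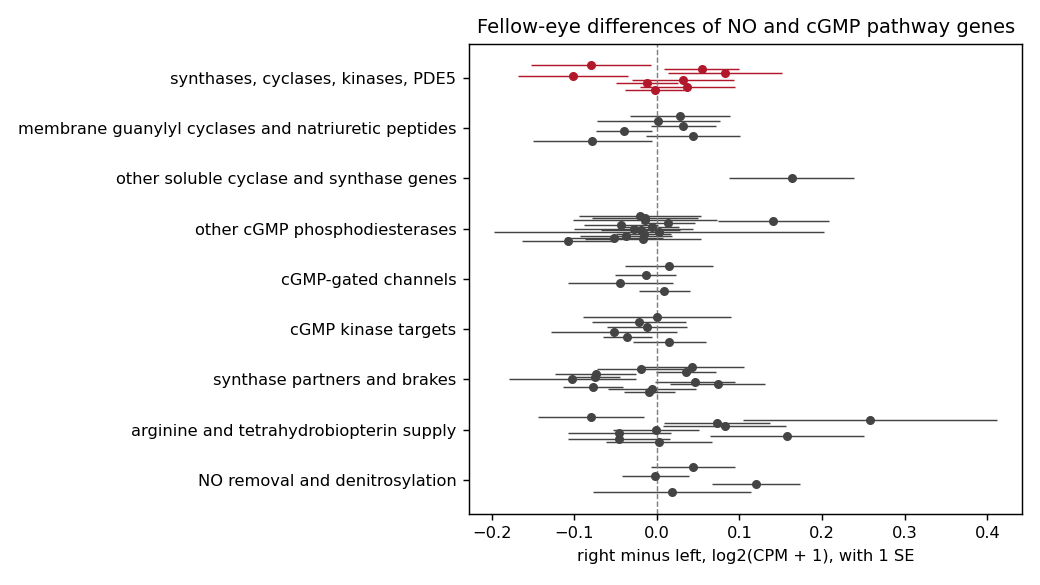
Right minus left on the log2(CPM + 1) scale with 1 SE for the 8 tested genes of the set (top row) and the 56 tested genes of 8 pathway lists, 1 point a gene. Points lie between -0.11 and 0.26, the outermost being Slc7a2, and none passed the test.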

How the data were processed

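Per the submitters' processing notes, STAR and Partek were used on GRCm38 (mm10). The sources used here do not give versions, the counting rule, its strand setting or filters. The deposited values are CPM not divided by length, with 0.0001 added by the authors, a unit read from the values. Less that 0.0001, 90.8% to 91.7% of values up to 20 steps were whole multiples of a step of 0.00883 to 0.0112 CPM (tolerance 0.1), too few to treat them as counts. Per the labels, some reads of the right eye of mouse 64 were lost to file corruption.

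The 14210 genes averaging 1 CPM or more were fitted with limma 3.58.1 (R 4.3.3) on log2(CPM + 1), right minus left with the mouse as a block and a variance trend; p-values are two-sided and adjusted by Benjamini and Hochberg's method across the 14210 genes (threshold 0.05). The fit was tested on simulated data. The retinas of a number come from 1 animal, and their deviations correlated at 0.14 to 0.61 in all 5 mice. Exon lengths come from GENCODE M21, in which 25029 of 25272 matched symbols had the deposited start and an end 1 base before the deposited stop; printed ends are 1 base before that stop. Named were all 9 genes, the up to 2 lowest p per pathway list, and the 2 most similar profiles per gene. Pseudocount, filter, scaling, block, trend and each mouse were varied. The genes, lists and settings were chosen with earlier results of these data known.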

Additional observations from a re-analysis of the deposited data

Results flagged for a closer look

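Prkg2 in the left retina of mouse 61 was at 1.61 CPM, far below the other 4 left retinas (2.15 to 2.34 CPM) for a group of 5. This was 1 of 18 groups examined (9 genes on 2 sides), and chance marks about 1 in 20. The right retina of that mouse was at 1.87 CPM, within the range of right retinas. Without mouse 61 right minus left was -0.13, in the same direction as with all mice.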

How the results depend on the processing

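Right against left, limma called 0 genes under every alternative run: pseudocounts of 0.1 and 5 CPM, no filter, both rescalings, no replicate block (0 genes), no trend, without each mouse, and without mice 65 and 68. At an unadjusted p under 0.05 limma had from 188 of 14210 tested genes with no replicate block to 856 of 25905 with no filter. With the filter kept, the highest number was 412 of 14210, with no trend. The lowest adjusted p of any of the 8 genes in them was 0.985. Between mice limma called 81 genes, and 36 with no trend, 41 without mice 65 and 68, and 23 (without mouse 61) to 88 when 1 mouse was left out, with 53 without mouse 66 and 39 without mouse 68; the cause was not tested. Some values changed sign: rescaling to the sum of listed genes gave 0.0097 for Gucy1a1 and 0.00022 for Gucy1b1, and leaving out mice 65 and 68 gave 0.018 for Gucy1a1 and -0.019 for Pde5a. In that last setting Gucy1b1 kept its sign at -0.033. Leaving out 1 mouse at a time, Gucy1a1 ran from -0.027 to 0.019 (0.011 without mouse 66), Gucy1b1 from -0.027 to 0.0062 and Pde5a from 0.033 to 0.13. Nos1, Nos1ap, Gucy1a2, Prkg1 and Prkg2 kept their direction in all these settings. Nos2, as reported at -0.0040, ran from -0.053 to 0.021 when 1 mouse was left out. The replicate block changed no call. Depth limits Nos2, with 1 to 18.9 implied counts, the most.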
